A study of Mus musculus with 9 samples.

Results

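Vascular endothelial growth factors (VEGFs) and their receptors were examined as 9 genes in the chromatin of mouse lung endothelial cells, out of 21887 protein-coding genes on the chromosomes analysed. The genes were 3 receptor tyrosine kinases (Kdr, Flt1 and Flt4), 2 neuropilin co-receptors (Nrp1 and Nrp2) and 4 ligands (Vegfa, Vegfb, Vegfc and Pgf). These 9 are called the family below, and the ligand gene Vegfd is not among them. They were chosen by name, and each was followed over its GRCm38.p6 span with 2 kb added on either side, here called its window. The cells were labelled wild type (WT), and no treatment, other genotype or other cell type was part of the comparison. Age, sex, the number of animals, any pooling and any culture of the cells were not stated in the sources used here.

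Histone modifications were mapped by ACT-seq. Here an antibody brings Tn5 transposase, bound to Protein A/G, to nucleosomes that carry its modification, and the DNA there is cut and tagged. The antibodies were against H3K4me3, a promoter mark, and 7 acetylations (H3K9ac, H3K27ac, H3K18ac, H4K8ac, H3K23ac, H2AK5ac and H3K14ac), and IgG was the control. Each of the 9 targets had 1 library. No value below has a replicate error, no difference was tested, and the order of neighbouring values cannot be set against a spread. In a bulk profile, a mark carried by few cells and a weak mark in all cells cannot be told apart.

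VEGF ligands are secreted dimers that bind receptor tyrosine kinases on the endothelial surface and drive the growth, survival and permeability of vessels. Kdr encodes VEGFR2, the main signalling receptor of blood vessel endothelium, Flt1 encodes VEGFR1, which binds its ligands tightly and limits signalling, and Flt4 encodes VEGFR3, the receptor of lymphatic endothelium and of growing vessels. Acetylated histone tails and H3K4me3 mark active promoters, and acetylated sites away from promoters often mark enhancers.

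The 9 genes have 11 transcription starts in the RefSeq promoter table, since Vegfa and Pgf have a pair each. A peak is a region of the deposited table, and each of its 8 joined lists is called by the mark whose library was densest in it. On the promoter stretch (250 bases before to 50 after the start), Nrp2 had peaks of all 8 lists, as did 13.8% of 21263 such stretches of protein-coding genes. Kdr had 7 lists there, without H2AK5ac, Flt1 had H3K18ac and H3K14ac alone, and the downstream start of Vegfa had H3K14ac alone. The 250 bases before these 4 starts are shown because they span the range from 8 lists to 1. They run 5' to 3' along the gene's strand in GRCm38.p6 (RefSeq), and capitals mark matches on either strand to 5 motifs. The motifs are GGGCGG, a core bound by the general factor Sp1, and GGAAGT, an element of ETS factors, a family that includes endothelial regulators. They also include ACGTG, the core of the element bound by hypoxia-inducible factors. The TATA box was searched as the letters TATAAA, and an element of Sox factors as AACAAT.
Nrp2, chr1:62703067-62703316, plus strand: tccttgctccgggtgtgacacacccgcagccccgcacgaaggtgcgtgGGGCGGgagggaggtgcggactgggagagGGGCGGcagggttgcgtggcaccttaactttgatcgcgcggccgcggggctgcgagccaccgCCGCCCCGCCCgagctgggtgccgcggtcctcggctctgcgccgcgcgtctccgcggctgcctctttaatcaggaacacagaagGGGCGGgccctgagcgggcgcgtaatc
Kdr, chr5:75978456-75978705, minus strand: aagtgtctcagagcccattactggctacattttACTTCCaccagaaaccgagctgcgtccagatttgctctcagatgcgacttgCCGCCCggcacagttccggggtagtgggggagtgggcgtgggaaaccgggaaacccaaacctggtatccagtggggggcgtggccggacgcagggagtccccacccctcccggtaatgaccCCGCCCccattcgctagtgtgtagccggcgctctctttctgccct
Flt1, chr5:147726012-147726261, minus strand: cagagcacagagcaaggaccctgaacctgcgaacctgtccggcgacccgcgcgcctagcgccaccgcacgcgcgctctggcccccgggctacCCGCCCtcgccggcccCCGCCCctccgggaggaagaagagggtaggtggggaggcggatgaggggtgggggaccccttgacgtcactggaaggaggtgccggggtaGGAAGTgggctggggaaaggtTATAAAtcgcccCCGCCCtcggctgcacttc
Vegfa downstream start, chr17:46025164-46025413, minus strand: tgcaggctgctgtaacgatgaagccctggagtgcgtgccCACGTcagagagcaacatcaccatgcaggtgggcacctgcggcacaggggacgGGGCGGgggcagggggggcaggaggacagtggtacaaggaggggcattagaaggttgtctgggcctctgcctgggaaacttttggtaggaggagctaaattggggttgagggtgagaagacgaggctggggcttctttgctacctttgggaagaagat

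Positions of motifs are counted with the start base as 0. The Nrp2 stretch held 5 GGGCGG matches, with first bases at -202, -173, -111, -106 and -27, of which those at -111 and -106 overlap. The Kdr stretch held GGGCGG at -166 and -45 and GGAAGT at -217, all on the opposite strand. Flt1 had the letters TATAAA at -31, GGAAGT at -52 and GGGCGG at -158, -142 and -19. At the downstream Vegfa start, ACGTG lay at -211 and GGGCGG at -158, and a GGAAGT match at 18 lies after the bases shown.

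Across the 11 stretches, GGGCGG was present in 10 and absent from the downstream start of Pgf, against 46.2% of all 21263 stretches. GGAAGT was in 3 (24.8% of all), ACGTG in 1 (20.9%), TATAAA in 1 (12.6%) and AACAAT in 0 (9.05%). Their GC content ran from 59.3% at the downstream Vegfa start to 75.3% at Vegfb, and the median of all stretches was 56.3%. The number of adjacent CG bases was 37 at Nrp2 and 7 at the downstream start of Pgf, with a median of 13 over all stretches. Letters that match a motif do not show that a factor binds there.

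**Figure D1:**
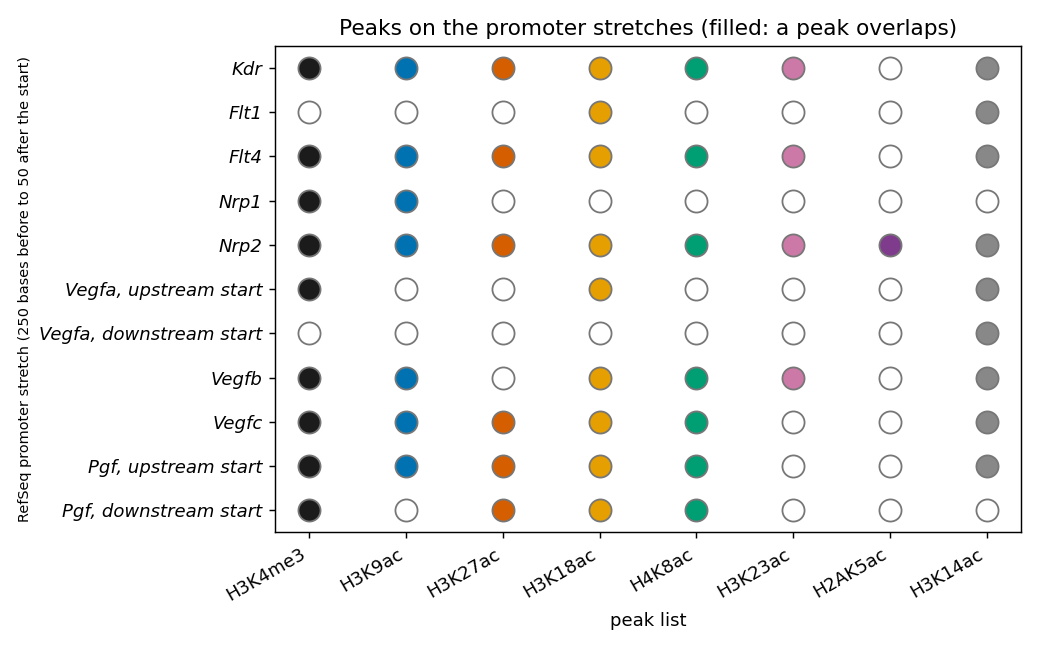
Peaks on the 11 promoter stretches of the 9 genes. Each row is a stretch of 250 bases before to 50 after a RefSeq start, each column a peak list, and a filled circle means that a peak shares at least 1 base with the stretch. Nrp2 has 8 filled circles, Flt1 and Nrp1 have 2 each, and the downstream Vegfa start has 1.

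H3K4me3 peaks lay on 9 of the 11 stretches (52.5% of all stretches), and H3K18ac and H3K14ac peaks also lay on 9 each (51.1% and 51.0%). H3K9ac and H4K8ac reached 7 each (39.8% and 50.7%), H3K27ac 6 (50.5%), H3K23ac 4 (40.3%) and H2AK5ac 1 (18.8%). No stretch of these genes was free of peaks, while 35.2% of all stretches were. The 2 without an H3K4me3 peak were those of Flt1 and the downstream start of Vegfa. At Flt1 the nearest H3K4me3 peak began 85 bp from the start.

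Each of these 9 genes had peaks of at least 7 lists in its window, and 8 of the 9 had peaks of all 8 lists. Among all protein-coding genes, 59.0% had at least 7 lists and 44.6% had all 8. Vegfb was the gene without an H2AK5ac peak, and its nearest one lay 4853 bp from the start. The windows were long, with a median of 50.2 kb and a range from 9.18 kb (Vegfb) to 169 kb (Flt1), against a median of 21.2 kb for all genes. Of windows of at least 50 kb, 69.1% had all 8 lists, and all 5 family genes of that length did. Of the single lists, H3K4me3 had a peak in 9 of the 9 windows (69.6% of all genes), as did H3K9ac (59.2%), H3K27ac (71.6%), H3K18ac (77.3%), H4K8ac (75.4%), H3K23ac (69.7%) and H3K14ac (89.8%). H2AK5ac had a peak in 8 (55.2%). With only peaks wider than the smallest width of their list, all 8 lists were left in 4 genes, Kdr, Flt1, Flt4 and Nrp2.

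The 9 windows held 950 peaks. H3K14ac, the longest list, gave 263, H4K8ac 173, H3K18ac 128 and H3K27ac 109. H3K23ac gave 97, H2AK5ac 67, H3K9ac 62 and H3K4me3 51. H3K4me3 was the list closest to the starts, with 58.3% of its covered bases within 2 kb of one. That share was 30.8% for H3K9ac and 20.2% for H3K27ac, and 11.4% and 11.2% for H2AK5ac and H3K14ac.

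Coverage was measured as bases under peaks per kb of window, a density that falls with window length where a mark sits at the start. Vegfb and Vegfc, for example, had 1365 and 1352 bases under H3K4me3 peaks, but 149 and 11.97 bases per kb in windows of 9.18 and 113 kb. The median H3K27ac coverage was 60.6 bases per kb over the 9 genes and 18.6 over all genes, and 7 of the 9 lay above the median gene. H4K8ac gave 79.4 against 21.5, H3K18ac 57.7 against 20.2 and H3K9ac 45.8 against 7.15. H3K4me3 gave 53.9 against 17.3, H3K14ac 72.7 against 38.7, H3K23ac 31.9 against 14.1 and H2AK5ac 8.52 against 2.45. In the list of H3K23ac, 5 of the 9 genes lay above the median gene, the lowest number of any list. The members were spread widely, since Kdr, Flt4, Nrp2, Vegfb and Pgf held 60.6 to 80.9 bases of H3K27ac peaks per kb and Flt1, Vegfa, Nrp1 and Vegfc 13.1 to 24.8.

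**Figure D2:**
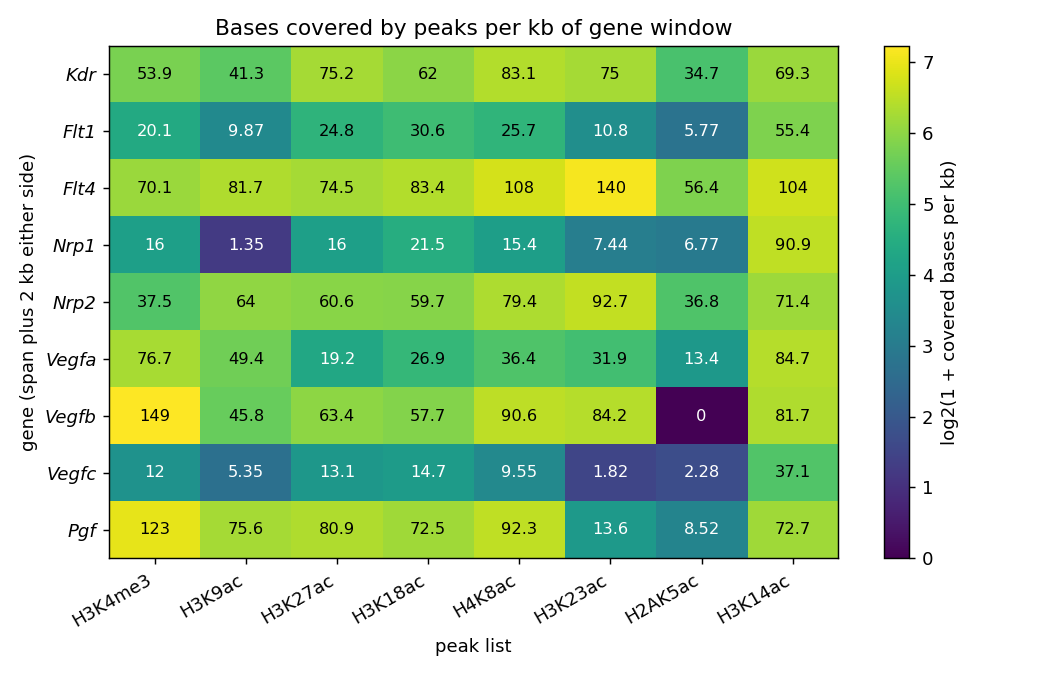
Bases under peaks per kb of window for the 9 genes (rows) and 8 lists (columns). Printed numbers are bases per kb and colour is log2 of 1 plus that value. Flt4 has the highest value of the H3K23ac list (140) and Vegfb the highest of H3K4me3 (149). Flt1, Nrp1, Vegfa and Vegfc have their highest values under H3K14ac, the list that also has the highest median over all genes (38.7). Vegfc is below the median gene in every list.

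**Figure D3:**
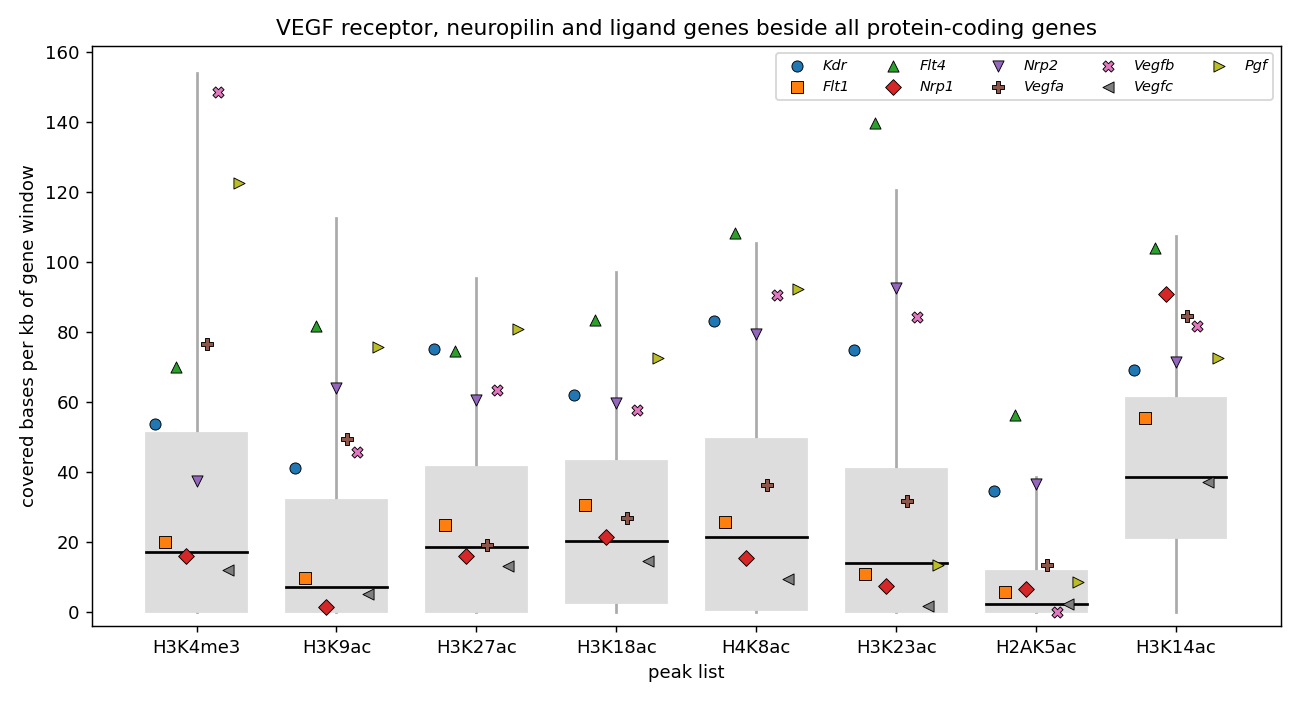
The same coverage set against all 21887 protein-coding genes. Grey boxes run from the first to the third quartile of all genes, the black line is their median, thin lines run from the 5th to the 95th percentile, and symbols are the 9 genes. Vegfc lies below the median gene in every list, while Flt4 lies above the upper quartile in every list.

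Kdr (chr5:75932827-75979072, minus strand) held 111 peaks in a window of 50.2 kb. Its H3K27ac coverage was 75.2 bases per kb from 16 peaks, at percentile 91.0 of all protein-coding genes. H4K8ac covered 83.1, H3K23ac 75.01, H3K14ac 69.3 and H3K18ac 62.0 bases per kb, and H3K4me3 53.9. H2AK5ac covered 34.7 bases per kb, which was percentile 94.0 of all genes, and none of that lay within 3675 bp of the start. With only peaks wider than the smallest width of their list, Kdr kept 885 of 3769 bases under H3K23ac peaks and 713 of 1745 under H2AK5ac peaks. It kept 3456 of 3780 bases under H3K27ac peaks. The widest H3K4me3 peak (1341 bp, chr5:75977570-75978910) and the widest H3K27ac peak (601 bp, chr5:75978167-75978767) both covered the start. For H3K18ac, H4K8ac, H3K23ac and H2AK5ac the widest peak lay 44.6 to 44.8 kb downstream instead, close to the 3' end of the gene. The long noncoding RNA gene Gm32727 overlaps the start of Kdr, and outside it the bases under H3K4me3 peaks were 1366 in place of 2707.

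Peaks of all 8 lists met at a pair of places in Kdr. The first, 22.4 kb downstream of the start, had 38 bases common to every list (chr5:75956016-75956053). The second, 44.7 kb downstream, had 253 common bases (chr5:75933610-75933862). Both lie within the gene span, and neither is at the start, where 7 lists joined into a region of 1385 bp. A base shared by all 8 lists was found in 4 of the 9 windows, those of Kdr, Flt1, Flt4 and Nrp2, and in 23.7% of all gene windows. Among windows of at least 50 kb the share was 36.3%, and 3 of the 5 family genes of that length had such a base.

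Flt4 (chr11:49609679-49652739, plus strand) held 152 peaks in a window of 47.1 kb. It had the highest coverage of the 9 genes in 6 of the 7 acetylation lists, all but H3K27ac. H3K23ac covered 140 bases per kb, H4K8ac 108, H3K14ac 104, H3K18ac 83.4, H3K9ac 81.7 and H2AK5ac 56.4. These values lay between percentiles 91.1 (H3K9ac) and 98.0 (H2AK5ac) of all genes. With only peaks wider than the smallest width of their list, Flt4 kept 3074 of 6576 bases under H3K23ac peaks and 1491 of 2652 under H2AK5ac peaks. It kept 4173 of 5091 bases under H4K8ac peaks. The widest H3K4me3 peak of 1500 bp (chr11:49609253-49610752) and an H3K9ac peak of 1306 bp both spanned the start, while the widest H3K27ac peak there was 310 bp (chr11:49609541-49609850).

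At Flt4 the 8 lists had bases in common in the promoter region, 0.534 kb downstream of the start (278 bp, chr11:49610075-49610352), and again 23.1 kb downstream (132 bp, chr11:49632739-49632870). A further region 13.9 kb downstream joined peaks of all 8 lists with no base common to all. Flt4 also had 5 merged regions with 7 lists, the most of any of the 9 genes. No other annotated gene lies in its window.

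Flt1 (chr5:147561604-147726438, minus strand) had the longest window, 169 kb, and a different pattern. Its start had no H3K9ac peak within 52.6 kb, no H3K23ac peak within 18.2 kb and no H2AK5ac peak within 10.7 kb. The H3K4me3 peak beside the start was 915 bp wide (chr5:147725012-147725926), and the nearest H3K27ac peak lay 299 bp from the start. Of the bases under its 18 H3K27ac peaks, 9.27% lay within 2 kb of the start, against 27.2% at Kdr. Coverage over the whole window was near that of the median gene in H3K27ac (24.8 against 18.6 bases per kb) and H3K4me3 (20.1 against 17.3).

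The widest H3K27ac peak of Flt1 (423 bp, chr5:147589834-147590256) lay 136 kb downstream of the start, and the widest H3K9ac, H3K18ac, H2AK5ac and H3K14ac peaks lay at the same place. That region joined 7 lists, all but H3K23ac. All 8 lists shared 165 bases 114 kb downstream (chr5:147611438-147611602). Another region of 7 lists lay 106 kb downstream and lacked H2AK5ac. In each acetylation list the widest peak of Flt1 lay 106 to 136 kb downstream, deep in the gene span. H3K14ac, the longest of the lists, alone made 36 of its 79 merged regions.

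**Figure D4:**
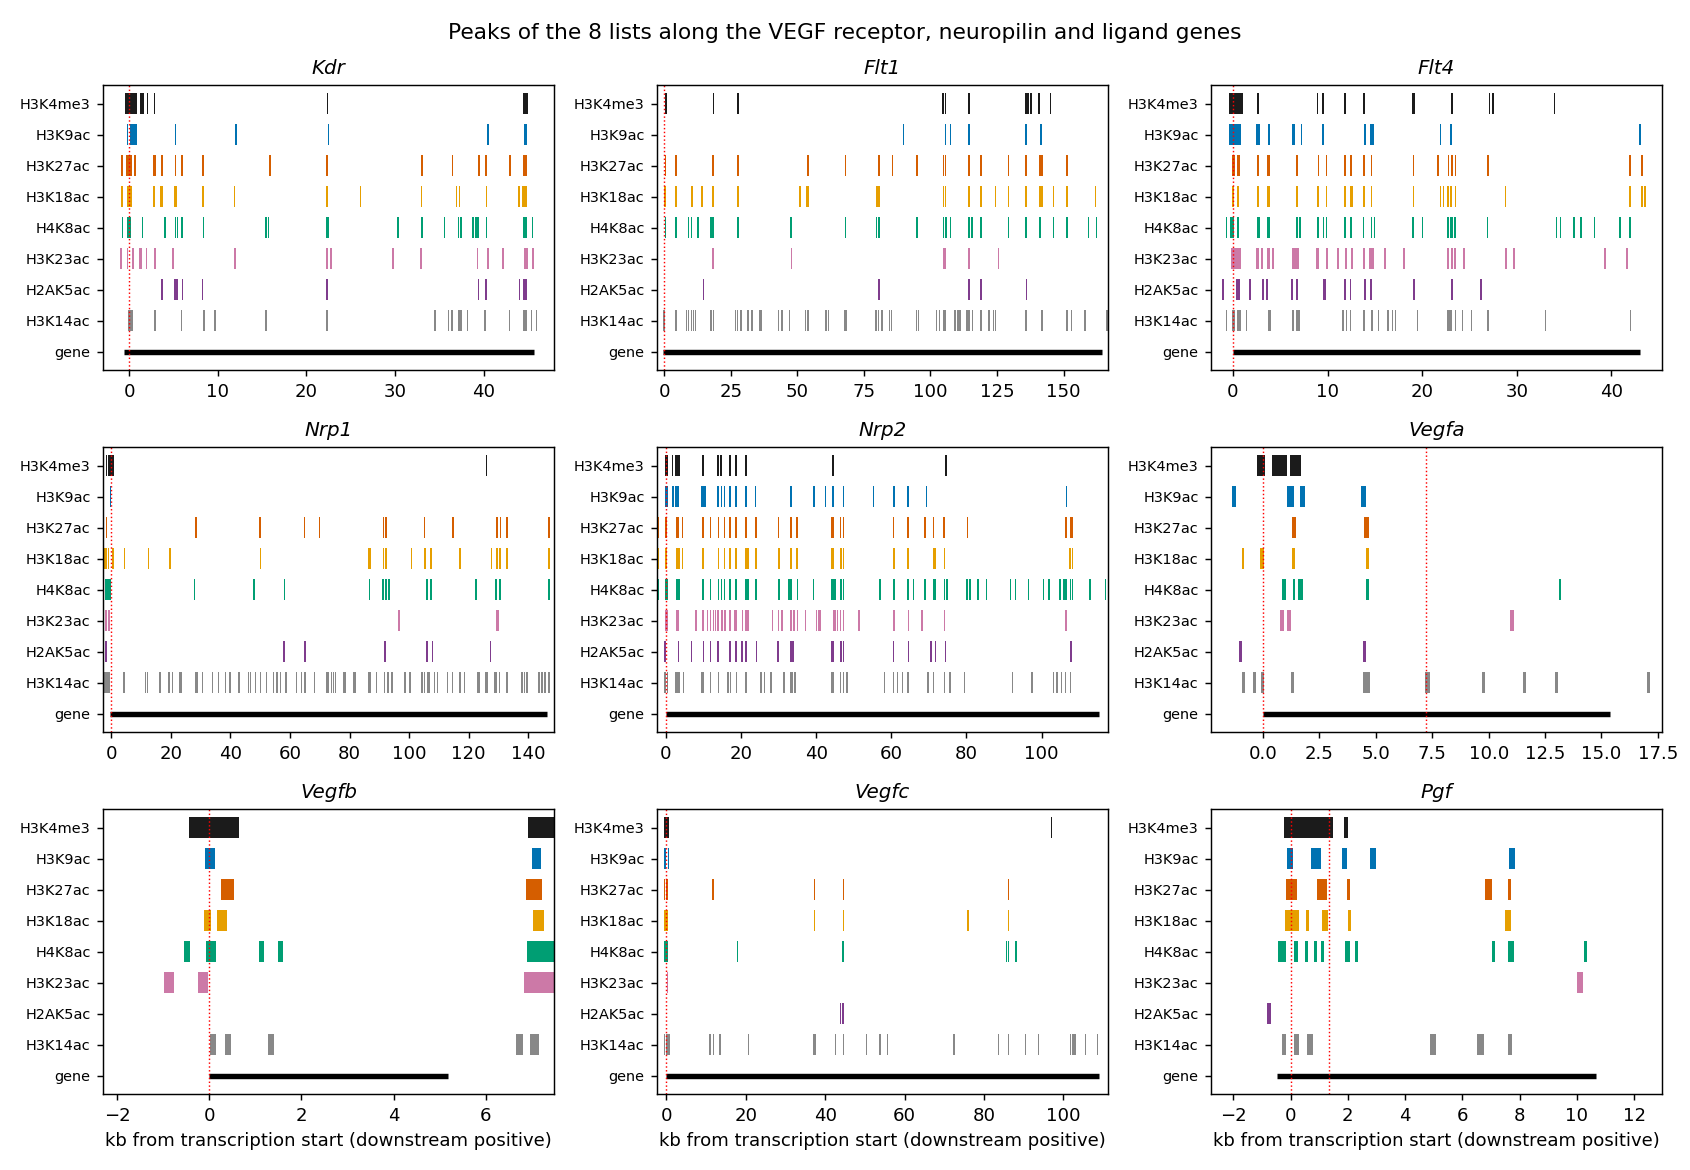
Peaks of the 8 lists along the 9 genes. The horizontal axis is the distance in kb from the transcription start with downstream positive, and each row is a list. Each bar is centred on a peak, and narrow peaks are widened to a least drawn width, so they are not to scale. The black bar is the gene span and red dotted lines are RefSeq starts. Flt1 shows peak stacks between 105 and 141 kb, Nrp2 shows them over its first 48 kb, and Nrp1 has dense H3K14ac bars with few of the other lists.

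The neuropilins, transmembrane co-receptors that bind VEGFs and semaphorins and present VEGF to Kdr, had unlike peak counts. Nrp2 (chr1:62703317-62818692, plus strand) had 244 peaks in 119 kb and Nrp1 (chr8:128358591-128505476, plus strand) 151 in 151 kb. Nrp2 had 23 H3K9ac peaks and Nrp1 had 1, a peak of 204 bp, which is the smallest width in that list. H3K27ac peaks numbered 28 and 13, H3K23ac 38 and 5, and H2AK5ac 25 and 7. The order was turned in H3K14ac, with 80 peaks in Nrp1 and 42 in Nrp2.

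Per kb of window, Nrp2 had 60.6 bases under H3K27ac peaks and Nrp1 15.97. H3K9ac covered 64.0 and 1.35 bases per kb, and H3K23ac 92.7 and 7.44. H3K14ac covered 71.4 in Nrp2 and 90.9 in Nrp1. In Nrp1, H3K14ac was at percentile 91.1 of all genes, while the other 7 lists were between percentiles 40.3 (H3K23ac) and 63.6 (H2AK5ac). H3K14ac was the sole list in 63 of the 102 merged regions of Nrp1 and in 19 of the 92 of Nrp2. Restricting the lists to peaks wider than their smallest width left 5153 of the 13709 bases under H3K14ac peaks in Nrp1 and 0 of the 204 under H3K9ac.

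Nrp2 had the most places where all lists met. Its start lay in a region of 857 bp that joined 8 lists without a base common to all. Stretches of bases under all 8 lists lay 3.34, 9.97, 13.97, 17.1, 18.7, 21.2, 21.5 and 44.6 kb downstream of the start. The longest of these stretches was 271 bp (chr1:62724399-62724669), followed by 157 bp (chr1:62747816-62747972), 139 bp (chr1:62721963-62722101) and 129 bp (chr1:62706594-62706722). The remaining 4 were 92 bp (chr1:62717246-62717337), 70 bp (chr1:62724763-62724832), 45 bp (chr1:62713260-62713304) and 32 bp (chr1:62720432-62720463). The widest H3K27ac peak (758 bp, chr1:62706165-62706922) and the widest H3K4me3 peak (1223 bp, chr1:62705820-62707042) were about 3 kb downstream of the start, not on it.

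At Nrp1 the start lay under an H3K4me3 peak of 1968 bp (chr8:128357940-128359907), the widest of any H3K4me3 peak in the 9 windows. The nearest H3K27ac peak was 1506 bp away and was also the widest of the gene (384 bp, chr8:128357184-128357567). Of the bases under H3K4me3 peaks, 93.5% lay within 2 kb of the start, whereas 3.77% of those under H3K14ac peaks did. The noncoding gene A930035F09Rik and the microRNA gene Mir1903 overlap this upstream region, and the noncoding gene Gm32643 overlaps peaks 94.1 to 133 kb downstream, inside Nrp1. Outside all 3 of these genes, Nrp1 kept 1141 of 2410 bases under H3K27ac peaks and 1590 of 2420 under H3K4me3 peaks.

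Vegfa, the principal ligand of Kdr and Flt1 and a hypoxia-induced factor (chr17:46016993-46032377, minus strand), held 33 peaks in 19.4 kb. H3K4me3 covered 76.7 and H3K14ac 84.7 bases per kb, at percentiles 84.1 and 89.0 of all genes. H3K27ac covered 19.2 bases per kb, close to the median gene, from 2 peaks. All 3 of its H3K4me3 peaks lay within 2 kb of a start, the widest 669 bp (chr17:46031308-46031976) inside the gene just after the upstream start. The widest H3K27ac peak (207 bp, chr17:46027694-46027900) lay upstream of the downstream start and belonged to a region of 6 lists. Another region, centred 1.13 kb after the upstream start, joined 7 lists.

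Pgf, placental growth factor, which binds Flt1 and not Kdr (chr12:85166637-85177785, minus strand), had the highest H3K27ac coverage of the 9 genes, 80.9 bases per kb from 5 peaks. H3K4me3 covered 123 bases per kb, from a peak of 1702 bp (chr12:85175845-85177546) that spans both of its starts and a second peak. The widest H3K27ac peak (394 bp, chr12:85177079-85177472) covered the upstream start. H3K23ac and H2AK5ac had 1 peak each in the window, both of the smallest width in their lists, so that without such peaks Pgf had 6 lists. The region at its starts joined 6 lists over 1914 bp.

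Vegfb, which binds Flt1 and neuropilin-1 (chr19:6982472-6987651, minus strand), had the shortest window and, per kb, the highest H3K4me3 coverage, 149 bases. Much of its coverage lay next to other genes. The widest peaks of H3K4me3 (1116 bp, chr19:6979621-6980736), H3K27ac (343 bp, chr19:6980429-6980771), H4K8ac and H3K23ac lay at the downstream edge of the window and overlap a RefSeq start of Fkbp2 at 6980464, which lies on the same strand. The span of Dnajc4, also on that strand, ends 260 bp upstream of Vegfb. On the gene span alone, the bases under H3K4me3 peaks fell from 1365 to 653, under H3K27ac peaks from 582 to 282, and under H3K23ac peaks from 773 to 0.

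Vegfc, a ligand of Flt4 (chr8:54077532-54186454, plus strand), had a window of 113 kb. Per kb it was the least covered of the 9 genes in H3K4me3, H3K27ac, H3K18ac, H4K8ac, H3K23ac and H3K14ac. H3K27ac covered 13.1 bases per kb and H3K14ac 37.1, both below the median gene. Its start was nevertheless marked, with 6 lists on the promoter stretch, an H3K4me3 peak of 1195 bp (chr8:54077046-54078240) and the widest H3K27ac peak (582 bp, chr8:54077360-54077941). The start region joined 7 lists over 1323 bp. The gene Gm33153 overlaps that region, and outside that gene Vegfc kept 157 of 1352 bases under H3K4me3 peaks and 6 lists.

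Many peaks of a list lay on peaks of another list. Of the 109 H3K27ac peaks in the 9 windows, 78.0% shared a base with an H3K18ac peak and 78.9% with an H4K8ac peak, against 72.4% and 70.2% of the 73842 H3K27ac peaks in the windows of all genes. With H3K14ac the share was 67.0% (63.2% in all genes), with H3K23ac 44.0% (36.5%), with H2AK5ac 38.5% (31.4%), with H3K9ac 36.7% (32.9%) and with H3K4me3 33.9% (36.9%). The members differed again. At Nrp2, 27 of 28 H3K27ac peaks met an H4K8ac peak and 15 met an H3K9ac peak. At Nrp1, 5 of 13 met H4K8ac and 0 met H3K9ac.

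When overlapping peaks of all lists were merged, the 9 windows held 425 regions. Of these 288 came from a single list, 161 of them from H3K14ac, and 14 joined all 8 lists. Nrp2 held 8 of the 14, Flt4 3, Kdr 2 and Flt1 1. H3K14ac is the longest list, with 578465 of all 1309635 regions. The same counts over all gene windows are not given here, so these numbers do not show a trait particular to the 9 genes.

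Reads could be placed at these genes only in part. Identifiers that belong to more than 1 list have counts summed over unrelated places, so reads were taken only from identifiers in which exactly 1 region has bases that no other identifier covers. Such an identifier may hold further regions that lie wholly under other peaks. Such regions were found in the windows of 14989 protein-coding genes (68.5%) and of 8 of the 9 members, and Pgf had none. They numbered 171 in the members, and 169 of them belonged to the H3K14ac list, so the reads describe almost only bases inside H3K14ac peaks and outside the peaks of other lists. H3K14ac reads were therefore bound to be present. Apart from 1 H4K8ac region and 1 H3K23ac region, reads of the other marks are counted away from their own peaks. The levels below are therefore a description of these bases and do not rank the marks. Nrp1 had 77 such regions, Flt1 47, Vegfc 22, Kdr 13, Vegfa 8, Vegfb 2, and Flt4 and Nrp2 1 each. Library totals over the table ran from 365999 reads (IgG) to 10044130 (H3K14ac). Intervals and floors below cover counting error only and take each read as independent. Mates of a pair were counted alone, and reads copied by PCR are not independent molecules. The intervals are therefore too narrow even for counting error.

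IgG had 0 reads in the regions of every member. It had reads in only 903 of the 578465 identifiers, so a count of 0 is usual and does not measure the background at these genes. Its small total over the table puts the limit of 3 counts at 8.20 CPM (reads scaled to a table total of 1e6). At Nrp1, H3K14ac had 1825 reads, or 182 CPM (95% Poisson interval 173 to 190). H3K27ac had 171 reads there (67.5 CPM, 57.8 to 78.4), 8.24 times the IgG limit. Multiples of this limit, here and below, leave out the counting error of the mark. They also grow with the unshared bases counted, which were 11762 at Nrp1, 6049 at Flt1 and 1205 at Kdr, so they do not rank the genes. Per kb of such bases, H3K27ac had 5.74 CPM at Nrp1, 7.57 at Flt1 and 15.4 at Kdr. H3K18ac had 40 reads (25.9 CPM), H4K8ac 28, H3K4me3 16 (10.8), H3K23ac 2, and H3K9ac and H2AK5ac 0. In the 11762 unshared bases of this gene, a count of 0 allows up to 1.84 CPM of H3K9ac and 0.714 CPM of H2AK5ac. Of the 28 H4K8ac reads, 16 lay in a region that is itself an H4K8ac peak (chr8:128386889-128386990). With only identifiers that hold 1 region in all, the H4K8ac reads of Nrp1 were 12 in place of 28.

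All regions counted at Flt1 were H3K14ac peaks, with 851 H3K14ac reads (84.7 CPM, 79.1 to 90.6). H3K27ac had 116 reads in them (45.8 CPM, 37.8 to 54.9), 5.59 times the IgG limit. H3K18ac had 52 reads (33.6 CPM), H3K4me3 32 (21.7), H4K8ac 30 (17.1) and H3K23ac 8 (1.67), and H3K9ac and H2AK5ac had 0. The region that begins 25 bp upstream of the Flt1 start (chr5:147726036-147726339) held 29 of the 32 H3K4me3 reads, 81 H3K14ac reads and 15 H3K27ac reads. It held more H3K14ac reads than any other region counted for this gene.

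At Kdr, where 1205 unshared bases remained, the counts were small. H3K27ac had 47 reads (18.6 CPM, 13.6 to 24.7) and H3K18ac 29 (18.8 CPM, 12.6 to 26.9). These were 2.26 and 2.29 times the IgG limit. H4K8ac had 25 reads (14.3 CPM), H3K14ac 127 (12.6), H3K9ac 1, and H3K4me3, H3K23ac and H2AK5ac 0. None of these regions covers the Kdr start, so the H3K4me3 count says nothing of its promoter.

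Among the ligands, Vegfc had 318 H3K14ac reads (31.7 CPM, 28.3 to 35.3) and 19 H3K18ac reads (12.3 CPM). Its 16 H3K27ac reads (6.32 CPM) were under the IgG limit. Vegfa had 135 H3K14ac reads (13.4 CPM) and 26 H3K4me3 reads (17.6 CPM). All 26 lay in a region 0.399 kb upstream of the upstream start (chr17:46032707-46032844), and the region on the downstream start (chr17:46024961-46025203) held 62 H3K14ac reads, 2 H3K27ac reads and 0 H3K4me3 reads. Vegfb had 117 H3K4me3 reads (79.2 CPM, 65.5 to 94.9), all in the region beside the start of Fkbp2 (chr19:6980854-6980991), and 72 H3K14ac reads (7.17 CPM), under the IgG limit. The regions of Flt4 and Nrp2, of 31 and 104 unshared bases, held at most 7 reads of any library.

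**Figure D5:**
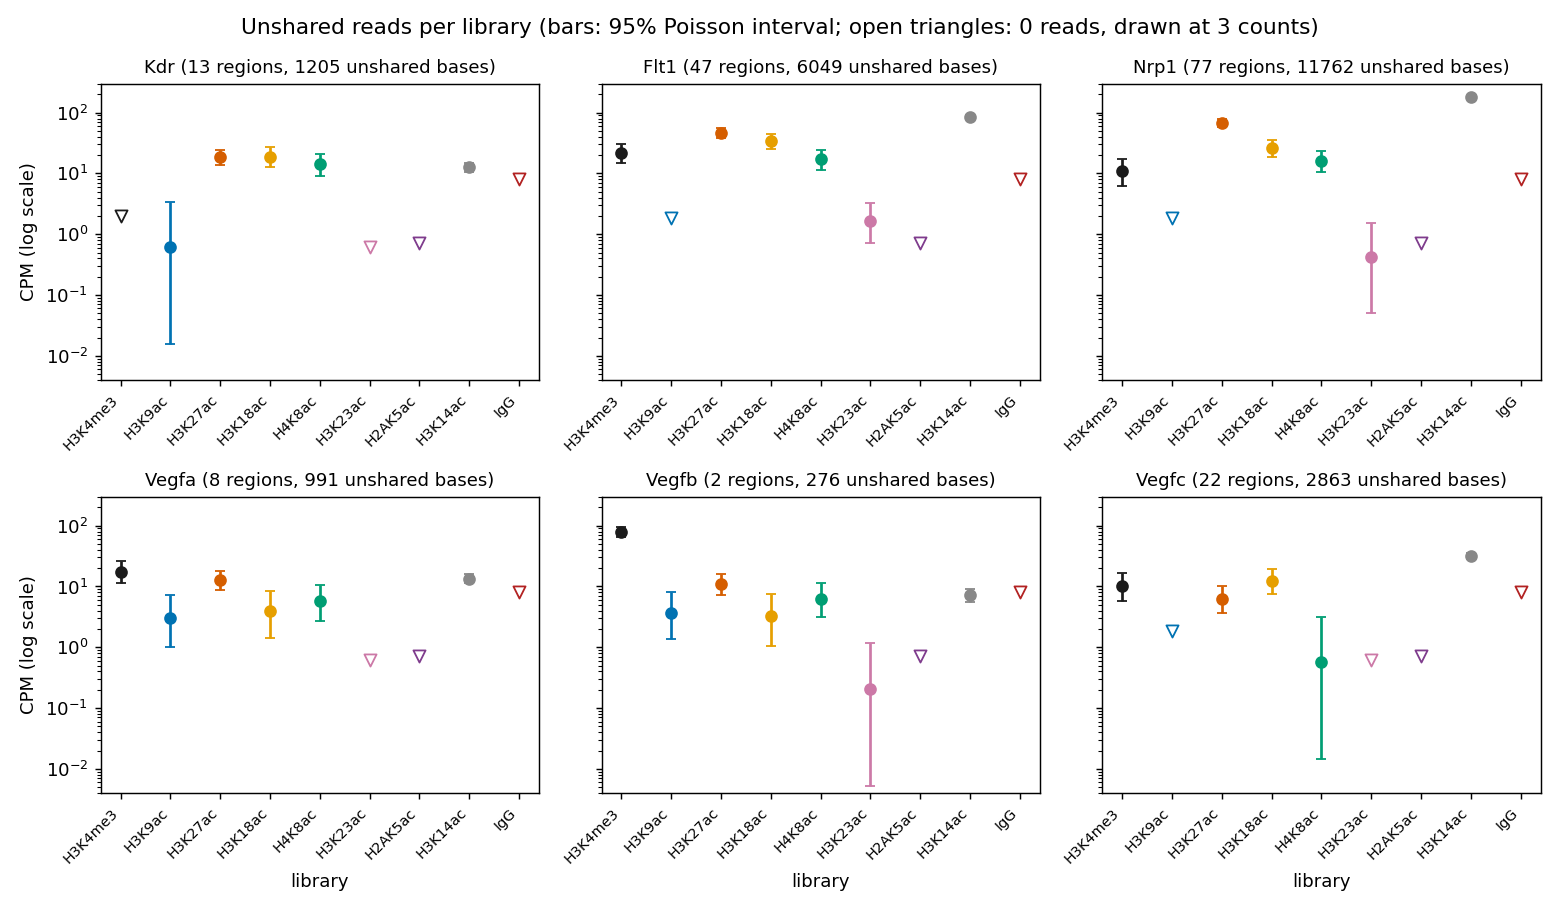
Reads in regions that could be placed, for the 6 genes with more than 1 such region. The vertical axis is CPM of the table total on a log scale, points are single libraries, bars are 95% Poisson intervals and open triangles are libraries with 0 reads drawn at 3 counts. IgG is an open triangle at 8.20 CPM in each panel. H3K27ac stands above it in each panel but that of Vegfc (6.32 CPM). H3K14ac, whose own peaks nearly all of these regions are, stands above it in each panel but that of Vegfb (7.17 CPM).

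A gene was called in a library when these reads reached 2-fold over IgG, with a prior count of 2 and at least 10 reads. Because IgG had 0 reads at every member, its side of the fold was the prior count alone. Each member with at least 10 reads of a mark was called and none with fewer. The calls of the members therefore do not measure enrichment over IgG. H3K14ac, whose peaks chose nearly all of the regions, was called in 6 of 8 members (85.8% of the 14989 genes). H3K27ac was called in 6 (47.0%), H3K4me3 in 5 (17.3%), H4K8ac in 5 (17.5%) and H3K18ac in 4 (19.2%). H3K9ac, H3K23ac and H2AK5ac were called in 0 of 8 (3.81%, 6.62% and 3.48%), on bases that by construction lie almost wholly outside their own peaks. The 8 members had more such bases than the 14989 genes (median 1098 against 460), and the part of this in the calls was not tested. Calls of Vegfa and Vegfb in H4K8ac, of Vegfb in H3K14ac and of Vegfc in H3K27ac were for CPM values under the IgG limit. Calls of Vegfb in H3K4me3, H3K27ac and H4K8ac needed the region beside the start of Fkbp2, which held 117, 21 and 5 of these reads. The other region of Vegfb held 0, 7 and 6, under the minimum of 10.

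Likeness of coverage between genes was measured as Euclidean distance over the 8 lists of log2(1 + bases per kb). Family genes were ranked apart from the other protein-coding genes. The family is a small part of the 21887 protein-coding genes, so a closer gene outside it says nothing of likeness within it. The median distance from Kdr to all genes was 7.32, and its nearest family gene was Nrp2 (0.920). The nearest genes outside the family were Fhdc1 (0.428) and Acsf2 (0.453) for Kdr. For Nrp2 they were Rasa3 (0.368) and Col4a2 (0.400), a chain of basement membrane collagen, and for Flt4 Unc5b (0.409), a netrin receptor of vessels and nerves, and Ino80c (0.417). Flt1 was nearest Mtcl1 (0.339) and Ccdc149 (0.433), with Nrp1 at 2.61. Nrp1 was nearest Prkcq (0.778) and Atp8b1 (0.915), and Vegfa nearest Irs2 (0.859) and Sc5d (0.979). These are single values per list, and likeness of coverage says nothing of shared function.

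Other genes of VEGF signalling were also covered by most lists. A list of 50 such genes held kinases, adaptors, phosphatases, plexins, semaphorins, targets and the ligand gene Vegfd, among others. Of the 50, 40 (80%) had all 8 lists, against 44.6% of all genes. The median H3K27ac coverage of the 50 was 41.5 bases per kb, against 18.6. Their windows were long, with a median of 64.3 kb, and 69.1% of all windows of at least 50 kb had all 8 lists. The highest values were those of Shc1, an adaptor of receptor tyrosine kinases, at 107 bases per kb, Pxn, the focal adhesion protein paxillin, at 104, and Hspb1, a small heat shock protein phosphorylated after VEGF, also at 104. The lowest were Ptprj, a receptor phosphatase, at 7.33, Prkcb, a protein kinase C, at 5.96, and Sema3c, a secreted semaphorin that binds neuropilins, at 0. Sema3c had 5 lists, with 19 H3K14ac peaks. Vegfd had 6 lists, with 0 H3K9ac and 0 H3K23ac peaks.

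The label of the cells was checked against marker genes. Of 12 endothelial markers, 10 had all 8 lists (44.6% of all genes did), Sox17 had 7 and Cldn5 had 0. All 8 lists were found in 3 of 12 lung epithelial markers (Sftpc, Krt18 and Cdh1), 2 of 12 leukocyte markers (Csf1r and Spi1) and 2 of 12 mesenchymal markers (Pdgfrb and Cspg4). The lists differ in window length, with medians of 43.5 kb (endothelial), 8.88 kb (epithelial), 12.8 kb (leukocyte) and 39.3 kb (mesenchymal), and longer windows held all 8 lists more often, so these counts are not on an equal footing. The median H3K27ac coverage was 59.9 bases per kb in the endothelial list, 20.2 in the epithelial, 29.0 in the leukocyte and 11.2 in the mesenchymal list. Each list was spread widely. Endothelial markers ran from 0 (Cldn5) to 103 (Egfl7), with Erg at 19.4 and Tie1 at 20.1, near the median gene. Epithelial markers ran from 0 (Ager, Epcam, Nkx2-1, Sftpa1 and Sftpd) to 72.4 (Krt8), with Sftpc at 70.4. Leukocyte markers ran from 0 (Ptprc, Cd3e and Itgax) to 159 (Cd68) and 194 (Cd14). Mesenchymal markers ran from 0 (Col1a2, Dcn, Des and Tcf21) to 51.9 (Cspg4). The part of other cells in the peaks of the VEGF genes was not tested.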

How the data were processed

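One ACT-seq library for each of 8 histone marks and IgG was analysed. Per the file headers, the deposited read counts were made by featureCounts 2.0.6 as unstranded paired-end reads, with each mate counted alone and no read given to several identifiers. Trim Galore, STAR, MACS2, DESeq2, FastQC and MultiQC are also named, with the builds mm10 and GRCm38.p6, per the submitters' processing notes. The sources used here do not give peak-calling settings, the treatment of duplicates or any use of IgG in calling.

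The table's 578465 identifiers hold 1309635 regions, because 8 peak lists numbered from 1 had been joined. The lists were separated again so that each runs in genome order, holds no overlapping regions and no region under its commonest width. On simulated lists 99.9978% of 91140 regions were placed correctly, and 98.228% by order alone. Those lists lay at random places, with widths drawn as the separation assumes, so these shares need not hold for real lists, whose peaks often overlap. In the real table, order alone put 2499 of 56235 H3K4me3 regions and 2497 of 69183 H2AK5ac regions in another list. Starts, counted from 0 in the table, are given counted from 1.

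Gene spans and promoter stretches came from RefSeq tables of GRCm38.p6, where 9 of 9 family genes and 50 of 50 pathway genes matched. Exons and introns were not used here. A peak counted for a gene when it shared at least 1 base with the span plus 2 kb. Reads were taken from 381479 identifiers in which exactly 1 region has unshared bases (nearly all in the H3K14ac list at these genes), and scaled to table totals as CPM. With 1 library per target no test was run. The family genes, the gene lists, the motifs and the rule for named genes (the 3 pathway genes with most and the 3 with least H3K27ac coverage, and the 2 genes nearest each receptor, each neuropilin and Vegfa) were chosen with earlier results of these data known. The comparison with windows of at least 50 kb and the merging of peaks were chosen after seeing the data. Alternatives were other windows, peak widths, overlap rules, read rules and a separation by order alone. Analyses used Python 3.11.15, NumPy 2.4.6, pandas 2.3.3, SciPy 1.17.1 and Matplotlib 3.10.9.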

Additional observations from a re-analysis of the deposited data

How the results depend on the processing

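No value changed sign, and separating the lists by genome order alone, counting a peak only with 0.5 of its width in the window, a prior count of 0.5, totals without mitochondrial and contig identifiers, and reads from identifiers that hold 1 region in all moved no median, peak count or count of calls over the 9 genes by 1.5 times or more. With only peaks wider than the smallest width of their list, the 9 windows held 464 peaks instead of 950, 4 genes had all 8 lists (Kdr, Flt1, Flt4 and Nrp2) instead of 8, and median coverage was 17.8 bases per kb for H3K9ac, 7.15 for H3K23ac, 5.00 for H2AK5ac and 34.2 for H3K14ac. On gene spans alone the H3K23ac median was 18.5, with 5 kb flanks the H2AK5ac median was 15.3, and outside other genes the H3K4me3 median was 33.2 bases per kb. With no minimum on reads, the share of genes called rose to 38.4% for H3K4me3, 8.25% for H3K9ac, 76.6% for H3K27ac, 49.9% for H3K18ac, 37.8% for H4K8ac, 10.9% for H3K23ac and 5.69% for H2AK5ac, and the family genes called became 2 for H3K9ac, 8 for H3K18ac and 1 for H3K23ac. Beyond the fewer peaks, bases or reads that these settings admit, the cause was not tested. No paired analysis was possible because each target had 1 library. The IgG total of 365999 reads sets the limit of 8.20 CPM, below which no difference from IgG was detectable.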
